A study of Homo sapiens with 10 samples.

Results

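The clustered protocadherin genes are 53 protein-coding genes on human chromosome 5, chosen by their symbols (PCDHA, PCDHB, PCDHGA, PCDHGB, PCDHGC or PCDHAC followed by a number) out of 20136 protein-coding symbols in GENCODE release 44 on hg19 (GRCh37). They comprise 13 alpha genes, 16 beta genes, 12 gamma A genes, 7 gamma B genes and 5 C-type genes, of which PCDHAC1 and PCDHAC2 belong to the alpha cluster and PCDHGC3, PCDHGC4 and PCDHGC5 to the gamma cluster. All 53 lie on the plus strand. No measured value entered the choice of members.

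The data are ChIP-seq peak lists from HCT116, an established human colorectal carcinoma line, with no treatment or genotype difference between libraries. The series has 10 libraries, 1 per antibody, and 5 peak lists were used. They cover total RNA polymerase II (Pol II, N-20 antibody), KAP1 (the chromatin co-regulator TRIM28), Larp7 and Hexim1 (proteins of the 7SK ribonucleoprotein, which holds the elongation kinase P-TEFb inactive) and Cdk9 (P-TEFb's catalytic subunit). The design concerns these factors at human genes, so the question here is where each of them was found along the protocadherin clusters. With 1 library per antibody no value has a replicate check and no test between lists was possible. Not analysed here were the input library and those for H3K27ac, H3K4me1, H3K4me3 and Ser5P Pol II.

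Clustered protocadherins are cell surface adhesion proteins best known from neurons, where each cell transcribes its own combination of them and so carries an identity code used in self-avoidance of its branches. In the alpha and gamma clusters every variable exon has its own promoter and encodes the whole extracellular part, the membrane span and a short cytoplasmic stretch, and is spliced to constant exons shared by the cluster, which encode the common cytoplasmic end. Beta genes consist of a variable exon with no constant exons. Most of these promoters carry a short conserved element with the core letters CGCT, and CTCF and cohesin take part in promoter choice. The C-type genes are in many neurons transcribed constitutively.

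The labels give the cell type of HCT116 as endothelial, whereas the line is of epithelial origin. Pol II peaks lay within 1 kb of the 5′ end of 10 of 12 epithelial marker genes and 4 of 11 endothelial ones, where 70.5% of all coding symbols had one. The deposited Pol II fold, the authors' own ratio of peak to background, had a median of 77.7 (3.97 to 119.8) at the epithelial markers with Pol II and 8.03 (7.23 to 10.5) at the endothelial ones, and TEK, VWF, EMCN and ROBO4 had no peak of any list. KRT8 and KRT18 have close 5′ ends and the same peaks, so their Pol II fold of 77.7 is counted for both. PECAM1, a further endothelial marker, was not matched to a protein-coding symbol and was left out. Of 12 neuronal markers 8 had Pol II, with a median fold of 26.8 (5.02 to 88.8), and RBFOX3, DCX and GAP43 had no list. Read depth is unknown, and the lists held 92939 Pol II, 61312 KAP1, 184243 Larp7, 229679 Hexim1 and 120113 Cdk9 peaks.

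Stretches just before the annotated 5′ ends are shown for the letters CGCT, 6 that hold them and that of PCDHGC5, which does not. Each sequence is 80 bases long, read 5′ to 3′ on the plus strand of GRCh37 up to the base before the 5′ end, with the letters CGCT in capitals. PCDHA1 (chr5:140165641-140165720) and PCDHA5 (chr5:140201109-140201188) stand for the alpha genes, PCDHB15 (chr5:140624883-140624962) for the beta genes, PCDHGA5 (chr5:140743649-140743728) and PCDHGB6 (chr5:140787508-140787587) for the gamma genes, and PCDHAC2 (chr5:140345975-140346054) and PCDHGC5 (chr5:140868568-140868647) for the C-type genes.
PCDHA1: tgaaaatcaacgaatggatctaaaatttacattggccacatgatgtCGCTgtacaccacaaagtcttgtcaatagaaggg
PCDHA5: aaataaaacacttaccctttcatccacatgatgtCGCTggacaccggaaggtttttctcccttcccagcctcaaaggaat
PCDHB15: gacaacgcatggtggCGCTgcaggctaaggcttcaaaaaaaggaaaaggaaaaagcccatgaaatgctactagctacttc
PCDHGA5: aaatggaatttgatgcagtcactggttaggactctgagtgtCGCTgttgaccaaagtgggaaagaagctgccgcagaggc
PCDHGB6: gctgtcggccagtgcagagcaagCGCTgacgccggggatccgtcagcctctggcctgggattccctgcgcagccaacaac
PCDHAC2: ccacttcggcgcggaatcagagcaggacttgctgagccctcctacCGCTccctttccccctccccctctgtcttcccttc
PCDHGC5: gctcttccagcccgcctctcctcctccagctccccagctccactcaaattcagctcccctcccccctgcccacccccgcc
CGCT was found on the gene strand within the 100 bases before the 5′ end in 45 of the 53 members (84.9%), and in 32.0% of all protein-coding symbols. On either strand the shares were 88.7% and 50.5%. The match nearest the 5′ end began at a median of -41, counted from the 5′ end, with a range of -95 to -4. The letters were absent on both strands in PCDHA7, PCDHA9, PCDHA11, PCDHB6, PCDHB8 and PCDHGC5, and on the gene strand only in PCDHGA8 and PCDHGA12. The annotated 5′ end lies 0 bp before the coding start in PCDHA7, 724 bp in PCDHA9, 921 bp in PCDHA11 and 2657 bp in PCDHGA8. The bases searched there lie unlike those of most members, so a missing match does not show that the promoter lacks the element. Nor does a match show that the element is present, since 32.0% of all protein-coding symbols have the letters. In PCDHAC2 the bases around the letters differ from those shared by PCDHA1 and PCDHA5. A match is a description of the letters and not a measured binding site.

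Over all 53 members, each of the 5 lists was found at a smaller share of 5′ ends than over all coding genes, with the largest gap for Pol II, while some classes exceeded that share for single lists. A promoter was the 5′ end with 1 kb on each side, and a single overlapping base of a peak was enough. Pol II was found at 14 of 53 members, where 70.5% of all coding symbols had it. KAP1 was found at 20 members (64.6% of all symbols), Larp7 at 32 (75.1%), Hexim1 at 33 (78.7%) and Cdk9 at 21 (69.1%). All 5 lists were present at 10 members (59.7% of all symbols) and none at 19 (18.3%). The other 830 coding symbols of chromosome 5 were close to the genome, with 71.8% carrying Pol II and 61.3% all 5 lists.

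The gene classes differed at their 5′ ends, and the beta genes were the emptiest. Among 13 alpha genes, Hexim1 was found at 13, Larp7 at 12, KAP1 and Cdk9 at 6 each and Pol II at 4. Among 12 gamma A genes, Hexim1 was found at 11, Larp7 at 10, KAP1 at 9, Cdk9 at 7 and Pol II at 6. The 7 gamma B genes had Larp7 and Hexim1 at 4, Cdk9 at 3, and Pol II and KAP1 at 2. Of 16 beta genes 14 had no list, and neither Pol II nor KAP1 was found at any beta 5′ end. Of the 5 C-type genes 4 had Larp7, Hexim1 and Cdk9, 3 had KAP1 and 2 had Pol II. Larp7 and Hexim1 thus exceeded the shares of all symbols (75.1% and 78.7%) in the alpha genes (92.3% and 100%). They also did so in the gamma A genes (83.3% and 91.7%). In the C-type genes their 80% each is 4 of 5 genes and near the shares of all symbols. KAP1 was at 75% of the gamma A genes (64.6% of all symbols). Cdk9 was at 80% of the C-type genes (69.1%), again 4 of 5. The gamma A counts include PCDHGA8, whose window peaks all lay in the coding exon of PCDHGB4. The classes are small, and these differences were not tested. Pol II exceeded the share of all symbols in no class.

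Listed by number, all 5 lists were present at the 5′ ends of PCDHA1, PCDHA5, PCDHAC1, PCDHAC2, PCDHGA4, PCDHGA5, PCDHGA6, PCDHGA8, PCDHGB6 and PCDHGA12. PCDHA2, PCDHA4, PCDHA9, PCDHGA7, PCDHGB5, PCDHGA9 and PCDHGC3 had 4 lists. PCDHA3, PCDHA6, PCDHA8, PCDHA10, PCDHB6, PCDHGB4, PCDHGA10, PCDHGB7, PCDHGA11 and PCDHGC4 had 3. PCDHA7, PCDHA12, PCDHA13, PCDHGA2 and PCDHGA3 had 2, and PCDHA11 and PCDHB1 had 1. The annotated 5′ end of PCDHA11 lies 921 bp before its coding start, and a Larp7 peak just past that coding start lay outside the window. With any annotated transcript start, Larp7 was at 13 of 13 alpha genes. No list reached the 5′ ends of PCDHB2, PCDHB3, PCDHB4, PCDHB5, PCDHB7 to PCDHB16, PCDHGA1, PCDHGB1, PCDHGB2, PCDHGB3 or PCDHGC5. The grid of members and lists shows this pattern against that of the coding exons.

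**Figure D1:**
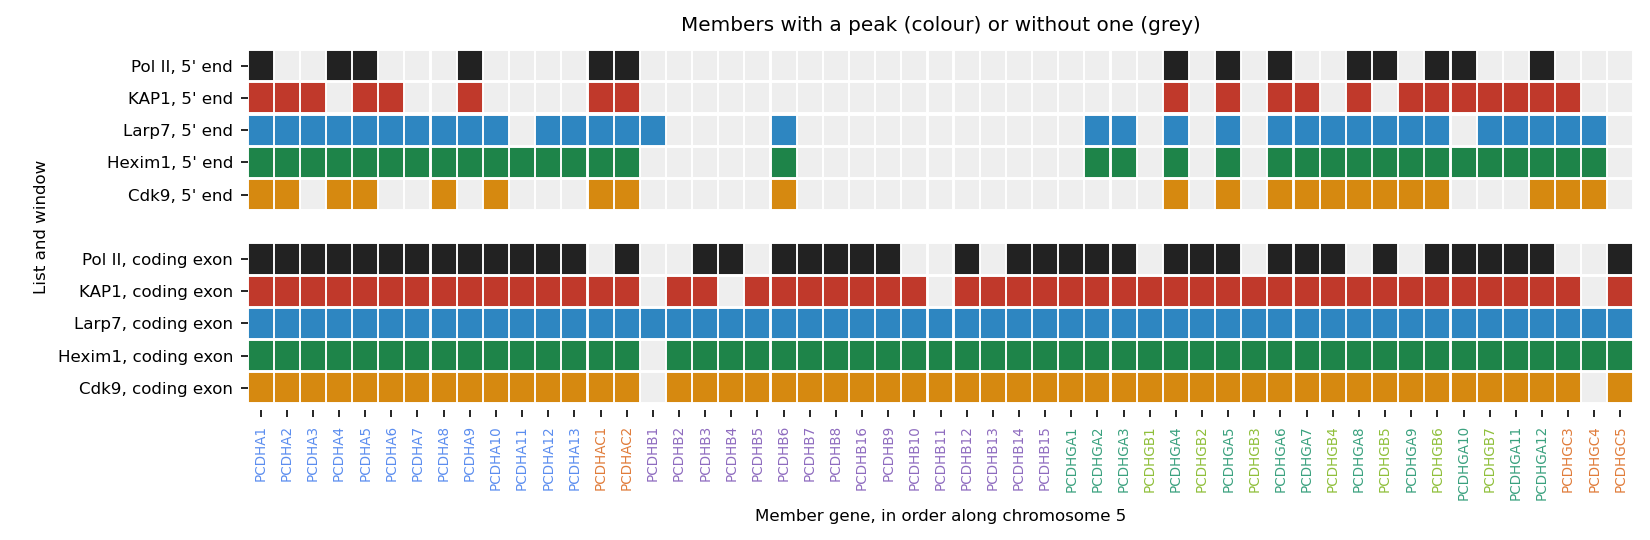
Presence of a peak for the 53 members in order along chromosome 5 (columns, names coloured by class), for each list (rows) within 1 kb of the 5′ end (upper block) and in the coding exon (lower block). Colour marks a peak and grey none. The beta genes are almost empty in the upper block, and all 53 members have Larp7 in the lower block.

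In the alpha genes, the middles of the peaks at the 5′ end lay 80 to 230 bp past the coding start. At PCDHA5 the deposited folds were Pol II 4.59, KAP1 5.58, Larp7 7.87, Hexim1 7.19 and Cdk9 4.29, and the middles of these peaks lay 141 to 195 bp past the coding start. At PCDHA1 they were Cdk9 3.46, KAP1 4.06, Pol II 4.65, Larp7 6.20 and Hexim1 6.25, with middles 92 to 174 bp past the coding start. Folds belong to their own list and are not compared between lists. PCDHA9 had the same placement for 4 lists (Pol II fold 6.33, Hexim1 fold 6.26) and no Cdk9. All of these peaks were narrow, with widths of 158 to 359 bp at the 3 genes.

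Among the gamma A genes, PCDHGA4 (Pol II fold 6.80, Hexim1 fold 7.65), PCDHGA5 (5.80 and 7.36) and PCDHGA6 (6.72 and 4.32) had all 5 lists, with middles 56 to 430 bp past the coding start. At PCDHGA7 and PCDHGA9 the middles lay 400 to 441 bp past it. At PCDHGA12 the Pol II peak (fold 6.82) lay 690 bp past it. PCDHGA8 differed. Its annotated 5′ end lies 2657 bp before its coding start, and all 5 of its window peaks, with a Pol II fold of 7.38, lay in the coding exon of the neighbouring PCDHGB4. Of the gamma B genes, PCDHGB6 had all 5 lists around its 5′ end (Pol II fold 4.46), with middles before the coding start except for Pol II. The 3 peaks of PCDHGB7 also had their middles before it. PCDHGB5 had 4 narrow peaks with middles 20 to 31 bp before its 5′ end (Pol II fold 3.56, the lowest among members), and PCDHGB4 had Larp7, Hexim1 and Cdk9 there.

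The C-type genes held the strongest Pol II peaks of the member 5′ ends. At PCDHAC2 the Pol II fold was 21.7 with a −log10 q of 58.3, over 694 bp that include the 5′ end, beside KAP1 4.51, Larp7 4.96, Hexim1 7.93 and Cdk9 4.75. At PCDHAC1 the Pol II fold was 8.74, and its Hexim1 peak (fold 7.99) spanned 1439 bp. PCDHGC3 had KAP1, Larp7, Hexim1 and Cdk9 with folds of 4.35, 5.16, 5.80 and 4.29 and no Pol II peak. PCDHGC4 had Larp7, Hexim1 and Cdk9. PCDHGC5 had none within 1 kb of its 5′ end.

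Pol II peaks at member 5′ ends were weak for that list. Their median fold was 6.52 (range 3.56 to 21.7), against 39.3 over the 14198 coding symbols with Pol II, and 0 of the 14 members reached that median. The medians were 4.29 against 4.57 for Cdk9 and 4.58 against 4.83 for KAP1. They were 4.71 against 4.80 for Larp7 and 5.37 against 6.91 for Hexim1. Above the median of all coding symbols with the list were 7 of 21 members for Cdk9 and 8 of 20 for KAP1. For Larp7 it was 14 of 32 and for Hexim1 7 of 33. The Pol II list has the narrow peak layout and the others the broad layout, so these gaps are not ranked between lists. The plot of Pol II fold by gene set shows the members with the genes around them.

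**Figure D2:**
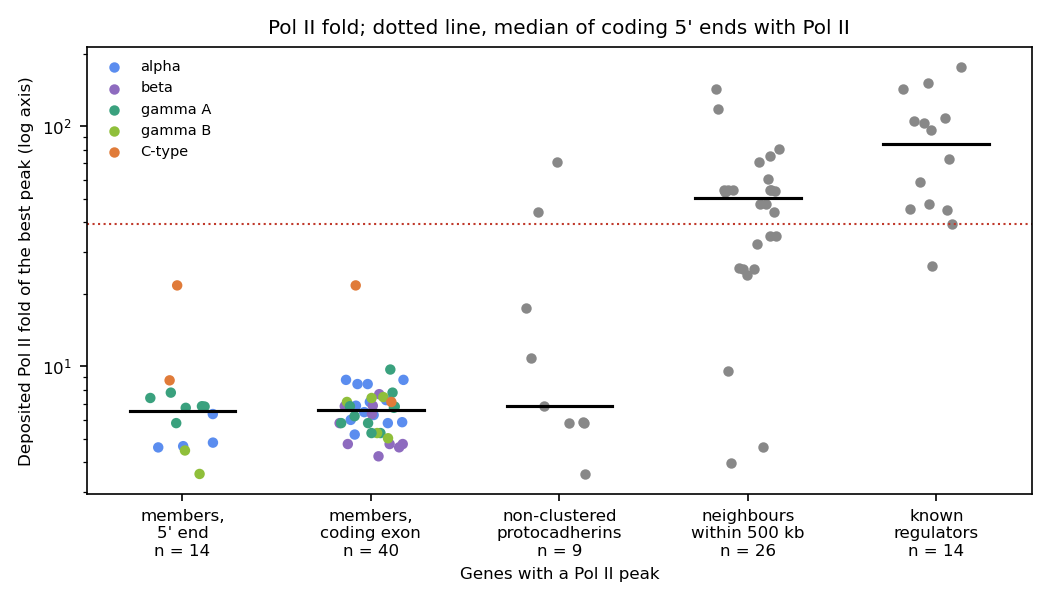
Deposited Pol II fold (log axis) of the best peak of each gene with one, for members at the 5′ end and in the coding exon (coloured by class) and for 3 other gene sets at the 5′ end (grey). Points are genes, black bars are medians, and the dotted line is the median of all coding 5′ ends with Pol II (39.3). The member with the highest fold is PCDHAC2 (21.7), below that line.

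Every list stayed below the share of all symbols when fewer peaks were kept, whereas with a wider window only Pol II did. With peaks of a −log10 q of at least 5, Pol II was found at 9 members (67.9% of all symbols), KAP1 at 2 (24.4%), Larp7 at 15 (47.2%), Hexim1 at 23 (67.5%) and Cdk9 at 3 (14.9%). Then 0 members had all 5 lists (9.16%) and 26 had none (26.5%). With only the best 20000 peaks per list, Pol II remained at 1 member (53.9%), KAP1 at 11 (41.4%), Larp7 at 10 (30.6%), Hexim1 at 10 (52.9%) and Cdk9 at 8 (40.4%), with 0 members having all 5 (16.1%) and 36 none (32.7%). With 2 kb on each side, Pol II was at 35 members (72.8%), KAP1 at 46 (67.5%), Larp7 at 53 (79.3%), Hexim1 at 51 (82.7%) and Cdk9 at 49 (73.4%), with all 5 at 35 (62.7%) and none at 0 (14.2%). In the whole first exon of the transcript at the 5′ end Pol II was in 38 members (62.6%), KAP1 in 45 (54.4%), Larp7 in 49 (65.5%), Hexim1 in 48 (69.8%) and Cdk9 in 48 (58.5%), with 37 having all 5 (48.3%) and 4 none (26.7%). The coding exons show where these added peaks lay.

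Inside the coding part of the variable exon the members were occupied in nearly all cases, including the beta genes. The coding exon was taken as the longest coding segment of each gene. Larp7 overlapped it in 53 of 53 members, where 40.5% of all coding symbols had Larp7 in their longest coding segment. Hexim1 did so in 52 (41% of all symbols), Cdk9 in 51 (32.8%), KAP1 in 49 (29.8%) and Pol II in 40 (31.1%). All 5 lists were present in 39 members (24.8%), and no member was without a list (55.3%). Longer segments are hit more often, so 685 other genes with a coding segment of at least 2 kb were counted too. Of these 35.8% had Pol II, 34.7% KAP1, 44.2% Larp7, 43.2% Hexim1, 37.1% Cdk9, 29.6% all 5 lists and 52.7% none. The coding exon was examined after the counts at the 5′ ends were seen.

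By class, all 5 lists occurred in the coding exons of 13 of 13 alpha genes, 9 of 16 beta genes, 10 of 12 gamma A genes, 5 of 7 gamma B genes and 2 of 5 C-type genes. The 16 beta genes, with 0 Pol II and 0 KAP1 peaks at their 5′ ends, had 10 and 13 in their exons. PCDHB1, the first beta gene of the cluster, was the exception, with a single weak Larp7 peak (fold 3.10). PCDHB6 had all 5 lists in its exon, and its 3 window calls came from long exon peaks of 1483 to 1750 bp whose middles lay 1335 to 1441 bp past the coding start. PCDHB2 had KAP1, Larp7, Hexim1 and Cdk9 in its exon, with folds of 3.46, 3.95, 4.18 and 4.39. Pol II was missing from the exons of PCDHAC1, PCDHB1, PCDHB2, PCDHB5, PCDHB10, PCDHB11, PCDHB13, PCDHGB1, PCDHGB3, PCDHGA8, PCDHGA9, PCDHGC3 and PCDHGC4. KAP1 was missing from PCDHB1, PCDHB4, PCDHB11 and PCDHGC4, Cdk9 from PCDHB1 and PCDHGC4, and Hexim1 from PCDHB1.

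The exon peaks gathered in its 3′ part. When each coding exon was split into 3 equal parts, Pol II overlapped the 5′ part of 11 members, the middle part of 24 and the 3′ part of 37. The counts were 20, 33 and 46 for KAP1, 32, 47 and 49 for Larp7, 31, 40 and 49 for Hexim1 and 18, 34 and 49 for Cdk9. In the 3′ part of the 685 other long coding segments the shares were 25.8% (Pol II), 24.5% (KAP1), 34.3% (Larp7), 33.3% (Hexim1), 28% (Cdk9), 21.2% (all 5) and 63.1% (none), against 36 members with all 5 and 4 with none. The best peak of each member, that of highest −log10 p, had its middle at a median of 1813.5 bp past the coding start for Pol II. The medians of the other lists lay between 1749.5 and 1800.0 bp. Classes differed in this. In gamma A the median was 545.5 bp for KAP1 and 367 bp for Hexim1, and 1727.5 to 1934.5 bp for the other lists. In the C-type genes it was 419.5 bp for KAP1, 261 bp for Larp7, 251 bp for Hexim1, 1153.5 bp for Cdk9 and 1483.5 bp for Pol II (2 members).

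**Figure D3:**
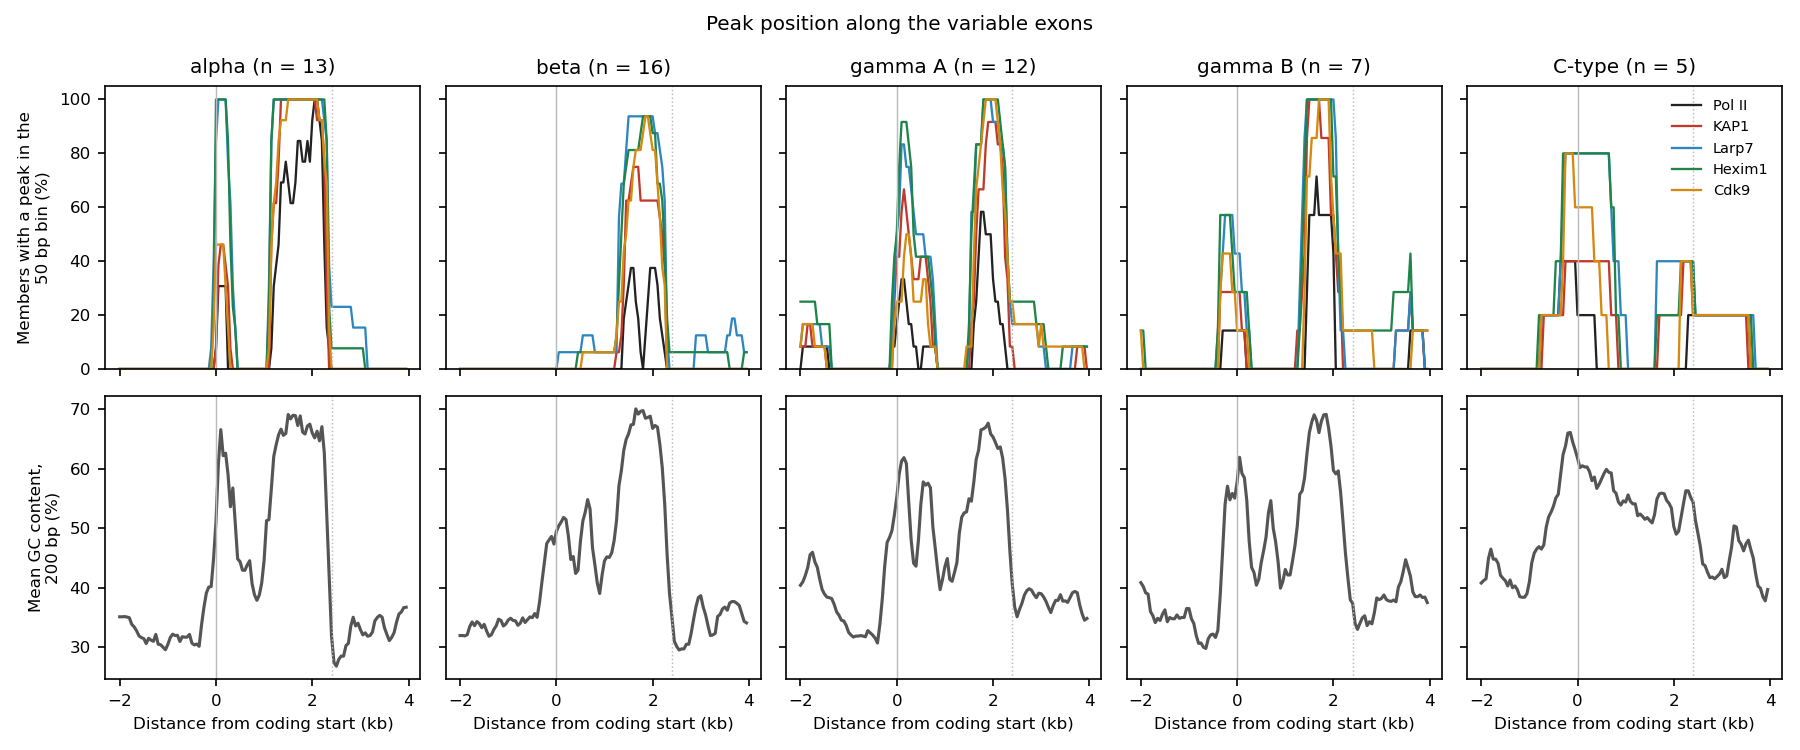
Upper row, percent of members of each class with a peak in each 50 bp bin, by distance from the coding start (kb), 1 line per list. Lower row, mean GC content (%) of the same members in 200 bp windows. Solid and dotted vertical lines mark the coding start and 2.4 kb past it. Larp7, Hexim1 and Cdk9 cover over 93% of the beta genes at the maximum in the exon's 3′ part, and the beta genes have no Pol II at the coding start.

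The alpha, beta, gamma A and gamma B genes had this 3′ site in common, and the site at the coding start differed between classes. In the alpha genes Larp7 and Hexim1 covered 100% of members at both places, with no peak of any list 800 bp past the coding start. KAP1 and Cdk9 covered 46.2% and Pol II 30.8% near the alpha coding start, and each reached 100% in the 3′ part. In the beta genes Larp7, Hexim1 and Cdk9 reached 93.8% and KAP1 75% in the 3′ part, and near the coding start no list exceeded 12.5%. In the C-type genes the order was turned, with Larp7, Hexim1 and Cdk9 at 80% before the coding start and no list above 40% past 1 kb.

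A stretch covered by peaks of all 5 lists at once lay in the coding exon of 39 members. It had a median length of 292 bp and its middle lay at a median of 1874 bp past the coding start. The middles spanned 1490 to 2093 bp in the 13 alpha genes and 1549 to 2111 bp in 9 beta genes. PCDHAC2 (174 bp), PCDHGA4 (274 bp), PCDHGA12 (692 bp) and PCDHGC5 (2471 bp) stood apart. At PCDHB15 the stretch ran from 1853 to 2144 bp, at PCDHGA5 from 1728 to 1997 bp and at PCDHGB6 from 1505 to 2036 bp past the coding start.

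The 7 sequences printed next show the exon's 3′ part where all 5 lists lay, with its CG dinucleotides. The PCDHA1 stretch is chr5:140167784-140167863, the 80 bases in the middle of its overlap, and for each other gene the 80 bases of the coding exon that match it best without gaps are given, on the plus strand of GRCh37, with CG in capitals. They are chr5:140176458-140176537 in PCDHA2, chr5:140203266-140203345 in PCDHA5, chr5:140237539-140237618 in PCDHA10, chr5:140627034-140627113 in PCDHB15, chr5:140745791-140745870 in PCDHGA5 and chr5:140789663-140789742 in PCDHGB6.
PCDHA1: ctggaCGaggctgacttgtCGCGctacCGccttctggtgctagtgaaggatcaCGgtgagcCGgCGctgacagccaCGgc
PCDHA2: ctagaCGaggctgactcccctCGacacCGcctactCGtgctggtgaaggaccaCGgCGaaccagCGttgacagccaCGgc
PCDHA5: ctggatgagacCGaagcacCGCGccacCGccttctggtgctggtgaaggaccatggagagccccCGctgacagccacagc
PCDHA10: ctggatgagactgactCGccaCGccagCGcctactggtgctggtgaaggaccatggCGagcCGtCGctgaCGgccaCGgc
PCDHB15: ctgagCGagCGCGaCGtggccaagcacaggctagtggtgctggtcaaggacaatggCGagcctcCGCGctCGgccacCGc
PCDHGA5: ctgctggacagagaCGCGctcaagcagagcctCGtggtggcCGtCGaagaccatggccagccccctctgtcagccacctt
PCDHGB6: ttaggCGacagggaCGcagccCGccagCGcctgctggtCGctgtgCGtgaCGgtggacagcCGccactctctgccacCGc
Identity to the PCDHA1 stretch was 81.2% in PCDHA2, 80% in PCDHA5 and 82.5% in PCDHA10. It was 63.8% in PCDHB15, 53.8% in PCDHGA5 and 57.5% in PCDHGB6. All 7 began 1887 to 1908 bp past the coding start and held 5 to 9 CG dinucleotides each. Peaks of all 5 lists overlapped each of them, although in PCDHA5 and PCDHA10 the stretch common to all 5 covered only part of the 80 bases.

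Base composition moved with these peaks. GC content of the coding exons had a median of 51.7% in the 5′ part, 51.7% in the middle part and 61.9% in the 3′ part, and CG dinucleotides per 100 bp were 4.77, 4.67 and 7.78. In the beta genes the medians of GC were 49.2%, 51.0% and 65.8%, and in the C-type genes 58.1%, 53.5% and 52.1%. Within 1 kb of the 5′ end the median GC content was 43.0% in members and 55% in all coding symbols. The 4 members with no list in the 3′ part of the exon, PCDHAC1, PCDHAC2, PCDHB1 and PCDHGC4, were the 4 with the lowest GC content there, 47.9%, 48.3%, 43.9% and 52.1%.

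The same held for long coding segments elsewhere in the genome. The 685 other genes were ordered by the GC content of the 3′ part of the segment and split into 4 groups of nearly equal size. All 5 lists overlapped that part in 0 of 171 genes in group 1 (lowest GC) and in group 2, in 9.94% of group 3 and in 74.4% of group 4 (GC 59.6 to 76.7%). Of the members, 67.9% had all 5 lists in the 3′ part, and 38 of 53 fell in the GC range of group 4. In the range of group 3 lay 12 members. Of these, PCDHA10, PCDHGA10, PCDHGA11, PCDHGB5, PCDHGB6 and PCDHGB7 had all 5 lists in the 3′ part. PCDHGA4, PCDHGA8, PCDHGA9, PCDHGB3, PCDHGC3 and PCDHGC4 did not. The share of these 12 members with all 5 lists was thus above the 9.94% of the other genes in group 3. All of the 12 but PCDHGC4 lay above the median GC content of that group (54.6%). In group 4, Pol II was in 82.6% of genes, KAP1 in 83.7%, Larp7 in 95.9%, Hexim1 in 95.3% and Cdk9 in 87.2%. All 53 members, whatever their GC content, had 69.8%, 86.8%, 92.5%, 92.5% and 92.5%. The part of base composition in the peaks was not tested beyond these values.

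**Figure D4:**
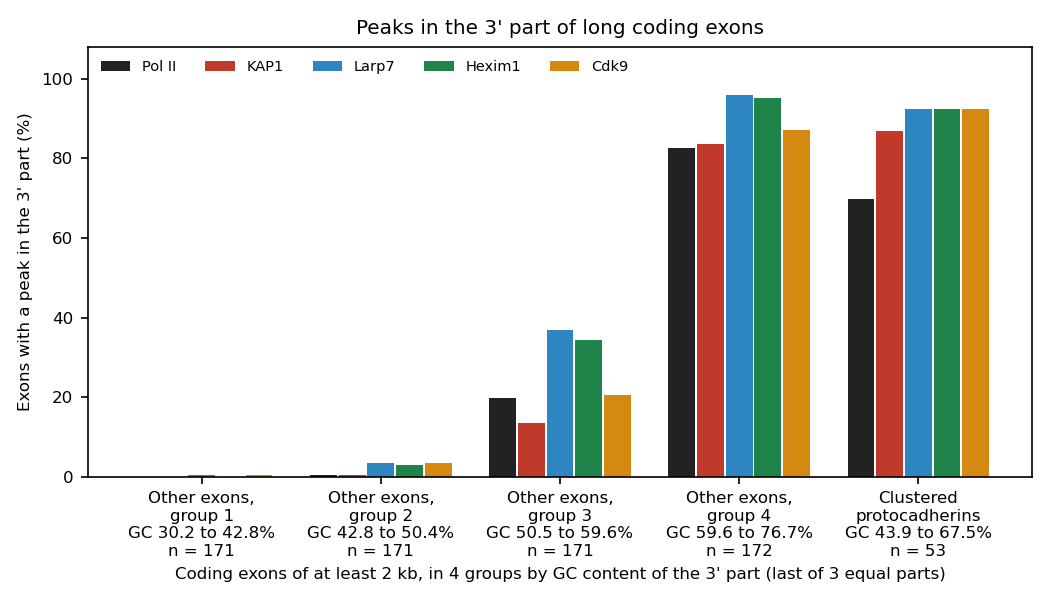
Percent of coding exons with a peak in the 3′ part (the last of 3 equal parts), by list, for other genes with a coding exon of at least 2 kb in 4 groups by the GC content of that part, and for the 53 clustered protocadherins. The members' bars (69.8 to 92.5%) are near those of the group with the highest GC content (82.6 to 95.9%). They are over all 53 members, not only those in the GC range of that group.

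The share of repeated 50-base words varied with position, in different directions by class, whereas identity between pairs rose towards the 3′ part outside the C-type genes. In the 3′ part of the beta exons a median of 47.9% of 50-base words occurred again within the clusters, against 0% in the 5′ part, and pairs of beta genes were a median of 92.2% identical there. In gamma A the medians were 0% in the 5′ part and 25.9% in the 3′ part. The share of repeated words was lower in the 3′ part in alpha (16.1% and 2.87%) and in gamma B (15.2% and 9.02%). It was 0% in both parts in C-type genes. Median identity of pairs went from 77.3% in the 5′ part to 83.4% in the 3′ part in alpha, and from 67.9% in beta. It went from 71.9% to 84.7% in gamma A, from 68.8% to 81.4% in gamma B and from 61.5% to 60.1% in C-type genes. How reads with several matches were placed is not given in the sources used here, so peaks of near-identical exons may share reads, and the part of this in the peaks was not tested.

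Peak strength in the exons was ordinary for long coding exons except for Pol II. Members with a Pol II peak in the exon had a median fold of 6.58 (range 4.22 to 21.7), and the 245 other long segments with Pol II a median of 9.49. The medians were 4.67 and 4.49 for KAP1, 5.16 and 4.94 for Larp7, 6.29 and 5.62 for Hexim1, and 4.30 and 4.25 for Cdk9.

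The pseudogenes of the clusters carried the same peaks. PCDHA14, PCDHB17P, PCDHB18P, PCDHB19P, PCDHGB8P and PCDHGB9P are annotated as pseudogenes and are not members. All 6 had Pol II, Larp7, Hexim1 and Cdk9, and 5 had KAP1, PCDHB17P being the exception. At PCDHA14 the middles of the 5 peaks lay 1716 to 1940 bp past the start of the pseudogene, with a Pol II fold of 4.60 and a Hexim1 fold of 7.78. At PCDHB18P the Pol II fold was 7.18.

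The constant exons of the alpha and gamma clusters differed. Alpha constant exons 1 (chr5:140358534-140358592), 2 (chr5:140362060-140362148) and 3 (chr5:140389212-140391932), present in transcripts of 15 member genes, had no peak of any list on them or within 1 kb, and the nearest peaks were 4289 to 18795 bp away. Gamma constant exon 3 (chr5:140890514-140892542), which holds the end of the transcript in 22 member genes, had all 5 lists, with a Pol II fold of 16.2 beside KAP1 3.81, Larp7 4.55, Hexim1 5.39 and Cdk9 4.01. These values are of the best peak of each list. For Larp7 and Cdk9 it lay at the 5′ end of this exon, and for the other lists at its 3′ end. Larp7 and Cdk9 also had a peak at the 3′ end (folds 4.32 and 3.40). Pol II and Hexim1 also had one at the 5′ end (folds 7.49 and 4.42). By fold, the Pol II peak at the 3′ end of this exon was the second strongest of 78 in the clusters and the 1 kb past them, after that of PCDHAC2. The third, with a fold of 15.9, began 208 bp past the 3′ end of the cluster and had a higher −log10 q (45.4 against 35.7). Gamma constant exon 1 (chr5:140874374-140874432) had Larp7, Hexim1 and Cdk9 within 1 kb but none on it, and gamma constant exon 2 (chr5:140884960-140885048) had Hexim1 776 bp and Cdk9 6 bp away. The first constant exons show how alike the paired exons are while their surroundings differ in peaks. They are given 5′ to 3′ on the plus strand, with the 39 of 59 letters that both share in capitals.
alpha constant exon 1: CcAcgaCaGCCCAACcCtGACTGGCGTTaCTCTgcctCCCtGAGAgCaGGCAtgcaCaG
gamma constant exon 1: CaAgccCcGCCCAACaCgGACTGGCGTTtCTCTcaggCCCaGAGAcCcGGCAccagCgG
The second constant exons are both 89 bp long and shared 29 of 89 letters position by position.

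Across the region, peaks were dense among the variable exons and in the gamma constant region. The stretch from PCDHA1 to PCDHA13 held 29.4 Pol II peaks per 100 kb, 20.3 of KAP1, 28.4 of Larp7 and of Hexim1, and 22.3 of Cdk9. Chromosome 5 as a whole held 1.88, 1.38, 4.77, 5.94 and 3.03. The alpha constant region after PCDHAC2 held 2.33 Pol II and 2.33 Larp7 peaks per 100 kb, 4.66 of Cdk9, and no KAP1 or Hexim1 peak. The gamma variable exons from PCDHGA1 to PCDHGA12 held 23.4 Pol II, 30.2 KAP1, 35.1 Larp7, 37.0 Hexim1 and 30.2 Cdk9 peaks per 100 kb. The gamma constant region after PCDHGC5 held 14.2 of Pol II and of Larp7, 28.4 of Hexim1 and of Cdk9, and 0 of KAP1 by peak middle. The whole beta cluster had 8.59 Pol II and 8.08 KAP1 peaks per 100 kb, and the gamma cluster 15.3 and 19.2.

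**Figure D5:**
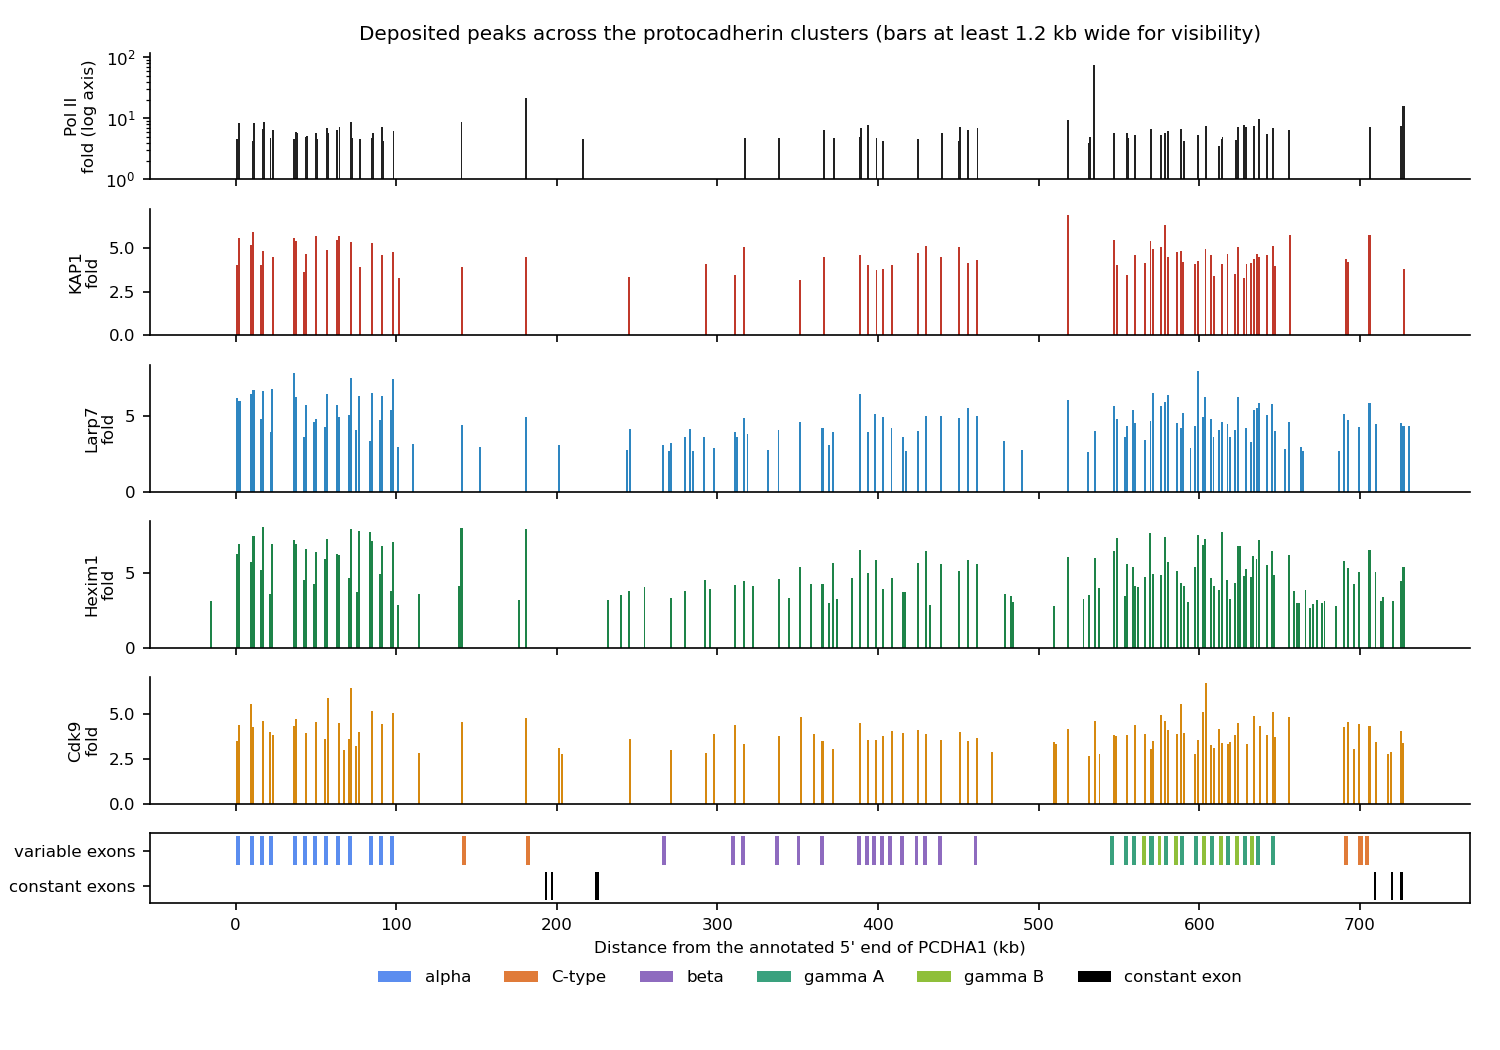
Deposited fold of every peak across the clusters, 1 panel per list, by distance in kb from the 5′ end of PCDHA1 (Pol II on a log axis), with variable and constant exons below. Most bars line up with the variable exons, and none of the lists has a peak on the alpha constant exons.

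Between the clusters, peaks per 100 kb were fewer than among the alpha variable exons, and for most lists no fewer than on chromosome 5 as a whole. The 39 kb from the alpha to the beta cluster held 0 Pol II, 1 KAP1, 2 Larp7, 4 Hexim1 and 1 Cdk9 peaks, at 5 sites, and the site at chr5:140409955-140411286 combined all but Pol II. The 81.1 kb from the beta to the gamma cluster held 4, 1, 5, 9 and 7 peaks at 12 sites. Per 100 kb this was 4.93 Pol II, 1.23 KAP1, 6.16 Larp7, 11.1 Hexim1 and 8.63 Cdk9 peaks, and from alpha to beta it was 0, 2.56, 5.12, 10.2 and 2.56. Below the chromosome 5 values were KAP1 from beta to gamma, and Pol II and Cdk9 from alpha to beta. The only site between the clusters with all 5 lists, chr5:140683186-140683881, lay between beta and gamma. It was the 5′ end of SLC25A2, a mitochondrial ornithine carrier gene, with folds of 9.53 for Pol II and 6.91 for KAP1. TAF7, which encodes a subunit of the general transcription factor TFIID, lies in the same stretch and had a Pol II fold of 75.4 and no KAP1 within 1 kb of its 5′ end.

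Genes related to the members by family, function or place did not share their low counts at the 5′ end. Of 12 non-clustered protocadherins, 8 had all 5 lists, namely PCDH1, PCDH7, PCDH8, PCDH9, PCDH10, PCDH12, PCDH17 and PCDH19, and PCDH11X and PCDH18 had none. Their Pol II fold had a median of 6.85 over 9 genes, from 3.56 at PCDH10 to 70.8 at PCDH12. Of 15 genes for regulators of the clusters, such as CTCF and the cohesin subunits, 12 had all 5. SMC1A lacked KAP1, STAG2 lacked KAP1 and Cdk9, and SETDB1, which encodes a histone H3 lysine methyltransferase, had only Larp7 and Hexim1. Of 31 coding neighbours within 500 kb, 26 had Pol II and 23 all 5 lists, with a median Pol II fold of 50.2. These neighbours include PCDH1 and PCDH12, counted above as well. They also include AC005609.1, inside the alpha cluster with the peaks of PCDHA14, and ENSG00000279983, inside the beta cluster with no list. Neighbours with close 5′ ends, such as HARS1 and HARS2 or IK and NDUFA2, had the same peaks, which are counted for each gene.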

How the data were processed

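ChIP-seq peak lists of 5 HCT116 libraries were used, 1 library per antibody. The submitters' processing notes name Bowtie 1.1, MACS2 and the build hg19. Not given in the sources used here are the control library, duplicate handling, depth and MACS2 version or options. A list holds the fold of a peak over background, a ratio the authors deposited, and, as the authors deposited them, the −log10 of its p and q. Their score column was not used. The Pol II list has the narrow peak layout and the others the broad layout.

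Only the autosomes, X and Y were used, and 2 Cdk9 peaks fell elsewhere. Peaks ended at least 10418 bp before the ends of the GRCh37 chromosomes. Genes came from GENCODE release 44 on GRCh37, with 1 five-prime end per symbol. Overlap was 1 bp or more and coordinates are 1-based. The longest coding segment of each gene was used, with gaps of up to 2 bp joined. A constant exon recurred in at least 3 member genes. Sequences were read from GRCh37 with Python 3.11.15, aligned with Biopython 1.88 and plotted with matplotlib 3.10.9. The overlap code was tested on simulated peaks.

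Genes described in full were those with all 5 lists at the 5′ end, the 3 of each class with most lists, and those with none. All members and lists were chosen with earlier results of these data known. No p-value is given, since there are no replicates. In all, 56 alternatives were planned, and the coding exon, the comparison with other exons of at least 2 kb and the GC groups were chosen after seeing the data.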

Additional observations from a re-analysis of the deposited data

How the results depend on the processing

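Counts at the 5′ ends of the 53 members (14 Pol II, 20 KAP1, 32 Larp7, 33 Hexim1, 21 Cdk9, 10 with all 5 lists and 19 with none) depended on the window and the peak threshold. With a −log10 q of at least 5 they fell to 9 Pol II, 2 KAP1, 15 Larp7, 3 Cdk9 and 0 with all 5. With the best 20000 peaks per list, by −log10 p, they were 1, 11, 10, 10 and 8, with 0 having all 5 and 36 none. Both settings keep fewer peaks. With 2 kb on each side they were 35, 46, 53, 51 and 49, with 35 having all 5 and 0 none, since the window then reaches the exon's 3′ part. In the whole first exon they were 38 Pol II, 45 KAP1, 49 Larp7 and 48 Cdk9, with 37 having all 5 and 4 none. In the coding exon, added after seeing the data, they were 40, 49, 53, 52 and 51, with 39 having all 5 and 0 none. Windows of 500 bp, peak middles with 250 bp on each side and any annotated transcript start kept every count within 1.5 times. The 5 pairs of constant exon and list became 3 at the stricter q, 1 with the 20000 best peaks and 10 with 1 kb on each side. The 34 peaks between the clusters became 6 and 5 under the first and second of these thresholds. Leaving out a replicate was not possible with 1 library per antibody, and unknown depth limits every absence reported.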
